A study of Rattus norvegicus with 6 samples.

Results

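The genes that cut peptides for MHC class I molecules and load them were described here across 6 libraries of rat spinal cord neurons. The 9 genes, of 17648 rows in the matrix, were the class I light chain B2M, the transporter genes TAP1 and TAP2, the bridging factor TAPBP, the immunoproteasome subunits PSMB8, PSMB9 and PSMB10, the regulator NLRC5 and the peptidase ERAP1. They were matched by symbol, and they were chosen from the same comparison that is described below, because B2M was among the clearest higher genes in it. B2M's own difference therefore chose the set, and the differences of all 9 genes are given as a description with no test.

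Neurons of neonatal Sprague-Dawley rats were cultured with Ara-C, which removes dividing cells, and after 3 days they were exposed to 10 μM glutamate for 1 h and kept for another 16 h without it. The Glu + siR-Con group (n = 3) received a control transfection and the Glu + siR-GAL3 group (n = 3) an siRNA against GAL3, the lectin encoded by Lgals3. The study asked what GAL3 does in neurons injured by glutamate. The series design gives glutamate for all 6 libraries, whereas the treatment label of the Glu + siR-Con libraries gives saline, so a difference in glutamate cannot be told apart from the siRNA if that label holds. The labels do not say whether the 3 libraries of a group came from separate cultures, so the spread between them may be technical.

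MHC class I molecules show peptides from inside the cell on its surface, where CD8 T cells read them. The proteasome cuts proteins into peptides, and in cells exposed to interferon the inducible subunits PSMB8, PSMB9 and PSMB10 take the places of PSMB5, PSMB6 and PSMB7. TAP1 and TAP2 form the transporter that carries the peptides into the endoplasmic reticulum, TAPBP (tapasin) holds the class I molecule to it, ERAP1 trims the peptides, and a heavy chain folds with B2M around the peptide. NLRC5 drives transcription of these genes. Resting neurons are known for low class I expression.

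Many of these genes have binding letters for interferon-activated factors and for NF-kappaB close to their starts, so promoter sequences are shown for the members that held such letters. RefSeq windows of assembly GRCr8, from 250 bases before to 50 bases after the annotated start, were matched by symbol for 7 of the 9 genes. NLRC5 and ERAP1 were not matched. The build behind the expression values is not given in the sources used here, and the windows were not used for any value. Each sequence runs 5′ to 3′ on the gene's strand from 170 bases (B2M and TAP1) or 100 bases (the others) before the start through the first 20 bases from it. The capitals mark matches on either strand to GAAANNGAAA, an interferon-stimulated response element, and to GGGNNTTTCC, a kappaB site. The stretches are B2M at chr3:129549160-129549349 (plus strand), TAP1 at chr20:4668524-4668713 (minus strand), TAP2 at chr20:4652277-4652396 (minus strand), TAPBP at chr20:4967858-4967977 (minus strand), PSMB8 at chr20:4657012-4657131 (minus strand) and PSMB10 at chr19:50743273-50743392 (minus strand).
B2M: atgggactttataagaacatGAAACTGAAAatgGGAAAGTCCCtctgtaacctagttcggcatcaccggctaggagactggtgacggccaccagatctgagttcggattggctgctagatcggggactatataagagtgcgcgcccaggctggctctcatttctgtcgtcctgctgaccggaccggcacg
TAP1: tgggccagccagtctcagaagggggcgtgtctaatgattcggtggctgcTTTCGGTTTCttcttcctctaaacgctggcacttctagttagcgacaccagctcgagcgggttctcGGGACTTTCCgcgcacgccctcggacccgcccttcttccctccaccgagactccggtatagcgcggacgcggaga
TAP2: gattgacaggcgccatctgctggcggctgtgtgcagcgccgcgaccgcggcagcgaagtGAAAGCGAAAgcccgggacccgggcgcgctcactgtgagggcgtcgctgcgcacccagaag
TAPBP: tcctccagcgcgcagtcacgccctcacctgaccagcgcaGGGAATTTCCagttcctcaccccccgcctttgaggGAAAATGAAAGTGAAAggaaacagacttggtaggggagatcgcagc
PSMB8: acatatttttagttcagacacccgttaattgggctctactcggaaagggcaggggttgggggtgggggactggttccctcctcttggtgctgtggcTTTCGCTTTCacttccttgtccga
PSMB10: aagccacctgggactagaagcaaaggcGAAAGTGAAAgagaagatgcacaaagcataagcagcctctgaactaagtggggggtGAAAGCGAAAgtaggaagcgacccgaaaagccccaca

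The response element letters were found in 6 of the 7 windows, all but that of PSMB9, and in 3.92% of all 33469 windows. B2M, TAP1 and TAPBP also held the kappaB letters, which were found in 1.53% of all windows. In B2M the response element match began 150 bases before the start and the kappaB match 137 bases before it. The TAPBP match was 2 overlapping copies, beginning 26 and 20 bases before the start, and the PSMB8 match lay across the start itself. PSMB10 held 2 separate copies, beginning 73 and 17 bases before the start. TAP1 and PSMB9 are transcribed away from each other from starts 457 bases apart, and their windows shared 44 bases.

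The constitutive subunits PSMB5, PSMB6 and PSMB7 held neither motif, and the chaperones and peptide editors of the route held the response element in 0 of 8 windows. Among the class I heavy chain genes of the rat, named RT1, 3 of 24 windows held the response element and 0 held the kappaB letters as written above. Other forms of these sites were present in the RT1 windows. GAANNGAAA was found in 10 of the 24, in 3 of the 7 member windows and in 8.54% of all windows, and GGGNNTTCCC in 6 of the 24, in 0 of the member windows and in 2.18% of all windows. The CCAAT letters, bound by NF-Y, were in 62.5% of the RT1 windows, in 3 of the 7 member windows and in 37.5% of all windows. The letters searched were chosen after the windows were seen, a match is no evidence of binding, and no match says only that these letters are not in the window.

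**Figure D1:**
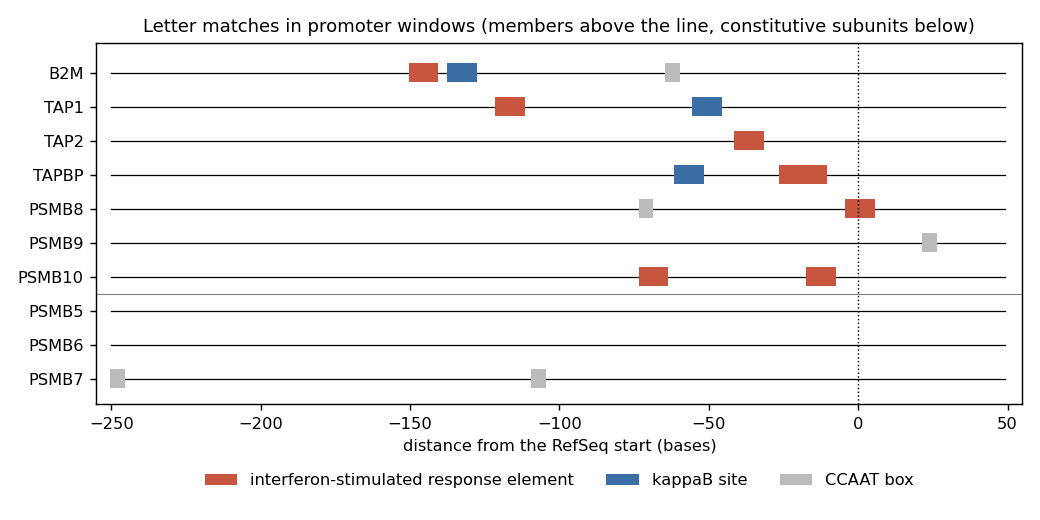
Positions of letter matches in the RefSeq windows, with the distance from the annotated start in bases on the x axis and 1 line per gene. Members stand above the grey line and constitutive proteasome subunits below it. Response element matches appear in 6 of 7 members and in none of PSMB5, PSMB6 and PSMB7.

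Values are expression values on a linear scale that the authors derived from FPKM, which counts fragments per length of gene. How far their later correction kept levels comparable between genes is not known. Levels and ratios between genes are therefore descriptions of the listed values. Fold changes are differences of log2(value + 1) from limma, which understates the change of low genes, and ratios are of the group means. The standard errors (SE) come from the fit to the 8495 genes whose mean over all libraries reached 1. B2M, TAP1, TAPBP, PSMB10 and ERAP1 passed that filter. PSMB8, PSMB9, NLRC5 and TAP2 did not, and their SE is from the fit to all rows.

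Knockdown and cell identity were checked first. LGALS3 was 77.4, 54.4 and 62.4 in Glu + siR-Con and -1.64, 32.3 and 18.5 in Glu + siR-GAL3. All knockdown libraries were below all control libraries, and a value below 0 shows that the matrix was corrected after FPKM was estimated. The fitted difference was -2.91 (SE 1.20, limma with Benjamini-Hochberg adjusted p = 0.571). The neuronal nuclear marker RBFOX3 was 0.300 to 0.429 over the 6 libraries. The most abundant neuron markers, MAP2 and ELAVL3, were 13.1 to 19.0 and 7.81 to 11.0. Of the 10 neuron markers found, 5 had a mean of at least 1. The astrocyte filament gene GFAP was 515 to 758 and the myelin gene MBP 629 to 919. Transcripts of other cell types were therefore abundant in cultures labelled as neurons, and in such bulk RNA fewer cells of a type cannot be told apart from less RNA per cell.

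Libraries also stood apart from their groups. Glu + siR-Con replicate 1 and Glu + siR-GAL3 replicate 1 shared 1364 exactly equal non-zero values, and Glu + siR-Con replicates 2 and 3 and Glu + siR-GAL3 replicate 3 shared 1312 to 1463 in each pair, whereas all other pairs of libraries shared 238 to 264. These are called library sets here, and what joins them is not stated. Glu + siR-GAL3 replicate 2 was in neither set and stood alone on the first principal component, which held 65.2% of the variance. The member values are therefore also given within the sets, which leaves out that library. A fit that also holds the library set gives that library a term of its own. The group difference in such a fit therefore rests on Glu + siR-GAL3 replicates 1 and 3 against the controls. Column totals were 64313 to 64714, and the sequencing depth is unknown.

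All 9 members had a higher mean in Glu + siR-GAL3. In 7 of the 9, all but TAP2 and TAPBP, the lowest Glu + siR-GAL3 library was above the highest Glu + siR-Con library, against 9.01% of all rows. That share is printed as background only, since the comparison itself chose the genes, and no p-value is given for a member. The median log2 fold change of the 9 members was 0.43, and that of all rows was 0.00051.

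B2M, the light chain shared by the class I molecules, was by far the most abundant member. Its expression value was 40.4, 28.0 and 29.6 in Glu + siR-Con and 78.9, 65.5 and 73.2 in Glu + siR-GAL3. The groups were far apart and did not overlap. The mean was 32.6 ± 6.73 (SD, n = 3) against 72.5 ± 6.76 (SD, n = 3), a ratio of 2.22 and a log2 fold change of 1.14 (SE 0.15). Within the library sets the ratio was 1.96 and 2.54. B2M moved from rank 229 to rank 68 from the top of the 17648 rows by group mean.

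TAP1, one chain of the peptide transporter, was 1.59, 1.21 and 1.27 in Glu + siR-Con and 3.58, 2.12 and 2.30 in Glu + siR-GAL3. The groups did not overlap, and Glu + siR-GAL3 replicate 1 was well above its group. The means were 1.36 ± 0.204 and 2.67 ± 0.794 (SD, n = 3 each), a ratio of 1.96 and a log2 fold change of 0.62 (SE 0.15). Within the library sets the ratio was 2.25 and 1.86.

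TAP2, its partner in the transporter, was listed around 0. It was 0.00176, 0.00291 and -0.00142 in Glu + siR-Con and 0.00260, 0.00270 and 0.0120 in Glu + siR-GAL3. The groups overlapped and no fold change is given. The matrix was corrected by the authors and holds no counts, so such values do not show how much TAP2 was expressed.

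TAPBP, which bridges the transporter and the class I molecule, was 2.33, 1.09 and 1.47 in Glu + siR-Con and 2.63, 2.18 and 2.27 in Glu + siR-GAL3. Glu + siR-Con replicate 1 lay above Glu + siR-GAL3 replicates 2 and 3, so the groups overlapped. The means were 1.63 ± 0.633 and 2.36 ± 0.234 (SD, n = 3 each), a ratio of 1.45 and a log2 fold change of 0.38 (SE 0.16). The ratio was 1.13 in the library set of replicates 1 and 1.77 in the other, and the log2 fold change was 0.23 without Glu + siR-Con replicate 2.

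**Figure D2:**
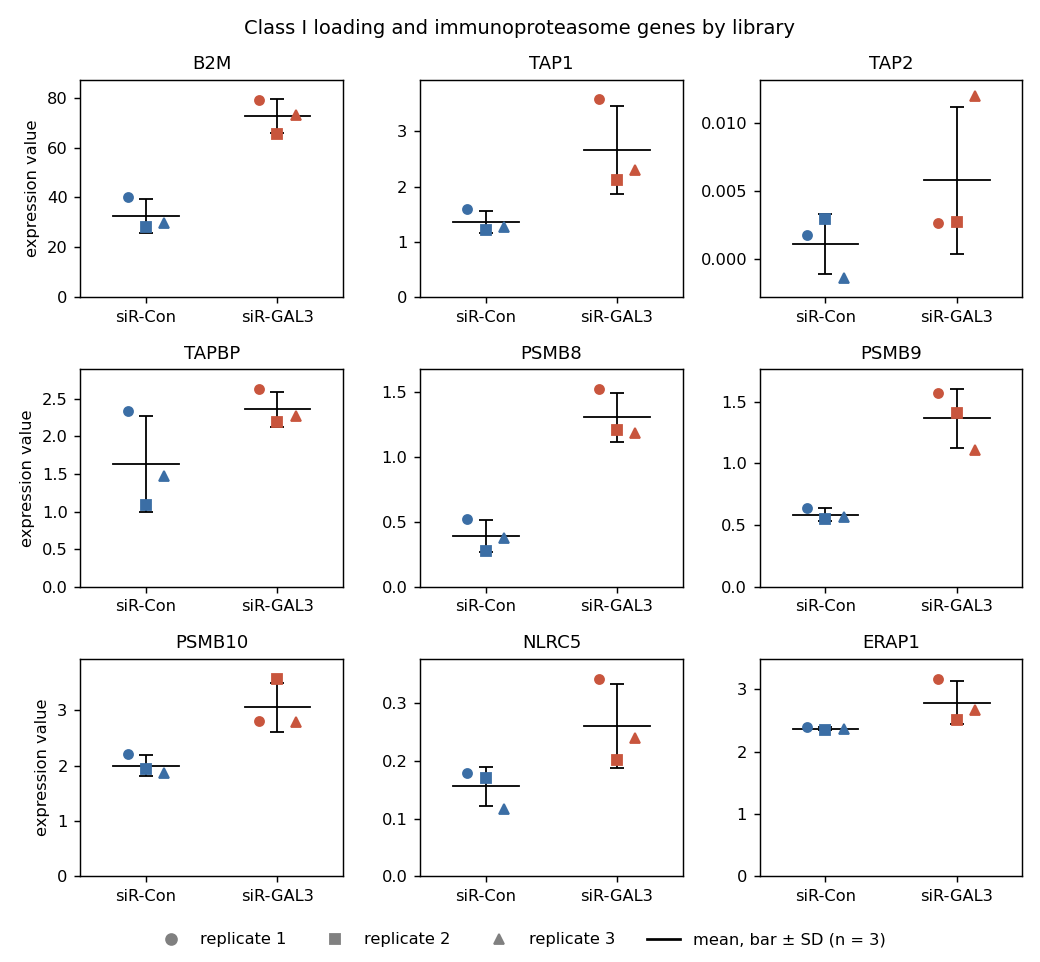
Expression value (y axis, linear scale) of each member in the 3 Glu + siR-Con and 3 Glu + siR-GAL3 libraries, with the marker shape giving the replicate and lines the mean ± SD. The groups do not overlap in 7 panels and overlap for TAP2 and TAPBP, and the TAP2 axis spans values around 0.

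PSMB8, the inducible subunit that stands in for PSMB5, had the largest ratio of the members. It was 0.523, 0.274 and 0.374 in Glu + siR-Con and 1.52, 1.20 and 1.19 in Glu + siR-GAL3. The lowest knockdown library was above the highest control library by more than either group's spread. The means were 0.390 ± 0.125 and 1.30 ± 0.189 (SD, n = 3 each), a ratio of 3.34 and a log2 fold change of 0.73 (SE 0.093). Within the library sets the ratio was 2.91 and 3.66.

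PSMB9, the counterpart of PSMB6, was 0.642, 0.547 and 0.563 in Glu + siR-Con and 1.57, 1.41 and 1.11 in Glu + siR-GAL3. The groups did not overlap. The means were 0.584 ± 0.0509 and 1.36 ± 0.237 (SD, n = 3 each), a ratio of 2.33 and a log2 fold change of 0.57 (SE 0.087). It was 2.45-fold higher in the set of replicates 1 and 1.99-fold higher in the other.

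PSMB10, the counterpart of PSMB7, was 2.21, 1.94 and 1.86 in Glu + siR-Con and 2.81, 3.57 and 2.78 in Glu + siR-GAL3. It had no overlap either, and its highest library was Glu + siR-GAL3 replicate 2. The means were 2.00 ± 0.183 and 3.05 ± 0.447 (SD, n = 3 each), a ratio of 1.52 and a log2 fold change of 0.43 (SE 0.096). Within the library sets, which leave that library out, the ratio was 1.27 and 1.47.

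The inducible subunits were next read against the constitutive ones, which take the same places in the particle. PSMB5, PSMB6 and PSMB7 were each highest in Glu + siR-GAL3 replicate 2, at 3.17, 8.12 and 4.83. None of them had an unadjusted p under 0.05. The groups overlapped for PSMB5 and PSMB6 but not for PSMB7, which was higher in Glu + siR-GAL3. It was 2.63, 2.66 and 2.65 in Glu + siR-Con and 2.94, 4.83 and 2.79 in Glu + siR-GAL3. Of all rows, 9.01% had no overlap in this direction. The ratio of PSMB8 to PSMB5 was 0.294, 0.162 and 0.196 in Glu + siR-Con and 0.838, 0.380 and 0.707 in Glu + siR-GAL3, with no overlap. For PSMB9 over PSMB6 it was 0.118, 0.109 and 0.114 against 0.307, 0.174 and 0.186, again with no overlap. PSMB10 over PSMB7 was 0.840, 0.727 and 0.702 against 0.956, 0.739 and 1.00, and here the groups overlapped. Each constitutive subunit thus had a higher listed value than its inducible counterpart, except in Glu + siR-GAL3 replicate 3, where PSMB10 and PSMB7 were about equal.

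**Figure D3:**
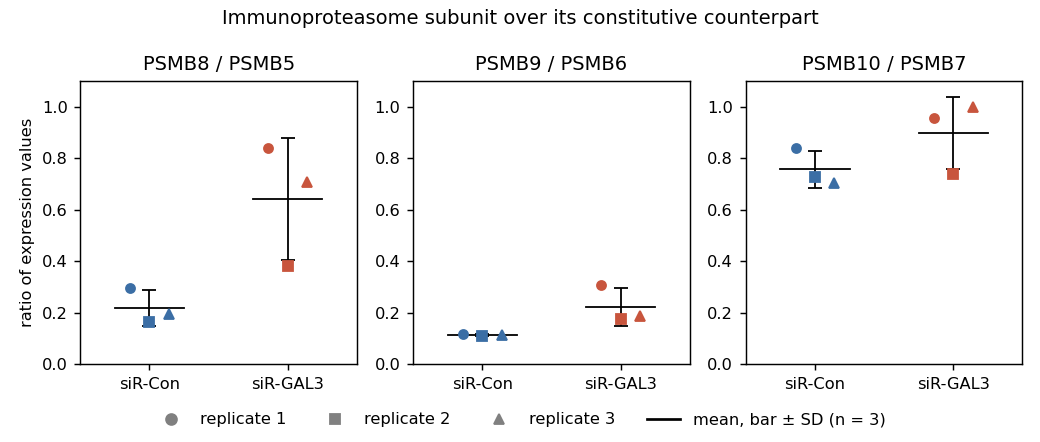
Ratio of the expression value of each inducible proteasome subunit to that of its constitutive counterpart (y axis) in the libraries of both groups, with the mean ± SD over n = 3. The groups are apart for PSMB8 over PSMB5 and PSMB9 over PSMB6 and overlap for PSMB10 over PSMB7.

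NLRC5, which switches on class I genes, was low throughout. It was 0.180, 0.170 and 0.117 in Glu + siR-Con and 0.342, 0.201 and 0.239 in Glu + siR-GAL3. The groups did not overlap, but only a small step separated the nearest libraries. The means were 0.156 ± 0.0335 and 0.261 ± 0.0730 (SD, n = 3 each), a ratio of 1.67 and a log2 fold change of 0.12 (SE 0.046). The library sets gave ratios of 1.90 and 1.67, and the log2 fold change was 0.078 without Glu + siR-GAL3 replicate 1.

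ERAP1, the trimming peptidase, had the smallest ratio of the members with a ratio. It was 2.39, 2.35 and 2.36 in Glu + siR-Con and 3.17, 2.51 and 2.67 in Glu + siR-GAL3. The control libraries were nearly equal, and the knockdown group was set apart mostly by replicate 1. The means were 2.37 ± 0.0231 and 2.78 ± 0.342 (SD, n = 3 each), a ratio of 1.18 and a log2 fold change of 0.16 (SE 0.080). The library sets gave ratios of 1.32 and 1.14. Without Glu + siR-GAL3 replicate 1 the log2 fold change was 0.093.

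The members also varied together inside the groups, which the choice of genes did not use. Replicate 1 was the highest Glu + siR-Con library in 8 of the 9 members, the highest Glu + siR-GAL3 library in 7 and the highest in both groups in 7. It was the highest in both groups in 6.24% of all rows. The 2 libraries with the number 1 form a library set, and the part of that set in the levels was not tested. Within both sets, Glu + siR-GAL3 was above Glu + siR-Con for 9 of 9 members, against 22.7% of all rows. Unlike the order of replicates, this count repeated the comparison that chose the genes, on fewer libraries. Its share of all rows is therefore background only. The 9 include TAP2, whose listed values do not show how much it was expressed.

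Over the 6 libraries, Pearson's r with B2M on the log2 scale was 0.99 for PSMB8, 0.94 for PSMB9, 0.92 for TAP1 and 0.87 for PSMB10. It was 0.86 for TAPBP, 0.83 for NLRC5, 0.80 for ERAP1 and 0.53 for TAP2. These values are descriptions over libraries of both groups, and any gene that differed between the groups as B2M did has a high r. Of the 2599 genes whose mean was 5 or more, 28 had r above 0.9. The 5 most like B2M were IFI27, an interferon-induced gene (r 0.999), CTSZ, a lysosomal peptidase (0.998), RAC1, a small GTPase (0.976), SMIM14 (0.976) and PNP, a purine enzyme (0.973). Mean levels of IFI27 were 2.08 and 11.6 in the control and knockdown groups, and those of CTSZ 8.26 and 17.6. The means of RAC1 were 80.9 and 82.7.

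The heavy chains that fold with B2M came from the RT1 genes, near-identical copies between which reads can be split, so single RT1 values are uncertain. Of 41 RT1 symbols, 28 were found, and RT1-A, RT1-A1 and RT1-A3 shared all 6 values, as did RT1-CE1 and RT1-CE12, which left 25 distinct sets of values. In 15 of the 25 the groups did not overlap and Glu + siR-GAL3 was higher, against 9.01% of all rows. Of the 8 with a mean of at least 1, 8 had an unadjusted p under 0.05 with Glu + siR-GAL3 higher, against 4.41% of the genes tested. The smallest limma adjusted p was 0.109 (Benjamini-Hochberg). The fit that also held the library set in effect left out Glu + siR-GAL3 replicate 2. In it 6 of the 8 had a limma adjusted p under 0.05, against 0.895% of the genes tested. In 3 of the 25 the Glu + siR-Con mean was at least 1, so most of the 8 passed the filter through the group where they were high.

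RT1-A1, a classical heavy chain, was 3.27, 2.04 and 1.61 in Glu + siR-Con and 6.62, 5.85 and 6.63 in Glu + siR-GAL3. The groups were well apart, with a log2 fold change of 1.19 (SE 0.17, limma adjusted p = 0.109). RT1-A2 had means of 1.93 ± 0.884 and 5.55 ± 0.400 (SD, n = 3 each) and a log2 fold change of 1.20 (SE 0.20, limma adjusted p = 0.130). RT1-S3 was 1.59, 0.523 and 0.342 against 6.78, 2.76 and 3.66, with a log2 fold change of 1.56 (SE 0.33, limma adjusted p = 0.220). RT1-CE10 was 1.86, 0.412 and 0.136 against 3.12, 3.59 and 4.28, with a log2 fold change of 1.48 (SE 0.32, limma adjusted p = 0.232). These 4 met the study criteria of an absolute log2 fold change above 1 and an unadjusted p under 0.05. In this direction 0.259% of the genes tested did, which is background only. RT1-S3 and RT1-CE10 had Glu + siR-Con means of 0.817 and 0.803, so they passed the filter through the group where they were high. Since reads can be split between the copies, the 4 may not be separate calls. The replicate 1 library was the highest control in each of the 4. The log2 fold changes of the others were 0.70 for RT1-CE7, 0.69 for RT1-CE4, 0.42 for RT1-CE15 and 0.34 for RT1-M3-1.

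The ratio of B2M to RT1-A1 was 12.4, 13.7 and 18.4 in Glu + siR-Con and 11.9, 11.2 and 11.0 in Glu + siR-GAL3, with no overlap and lower ratios in Glu + siR-GAL3. The listed value of the light chain was above that of this heavy chain in all libraries. Among other partners of B2M, FCGRT, the receptor that recycles antibodies, was 5.20 ± 0.668 and 4.86 ± 0.685 (SD, n = 3 each), and the log2 fold change was -0.08 (SE 0.12, limma adjusted p = 0.747), or -0.15 without Glu + siR-GAL3 replicate 2. MR1, CD1D1 and HFE did not reach a mean of 1.

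**Figure D4:**
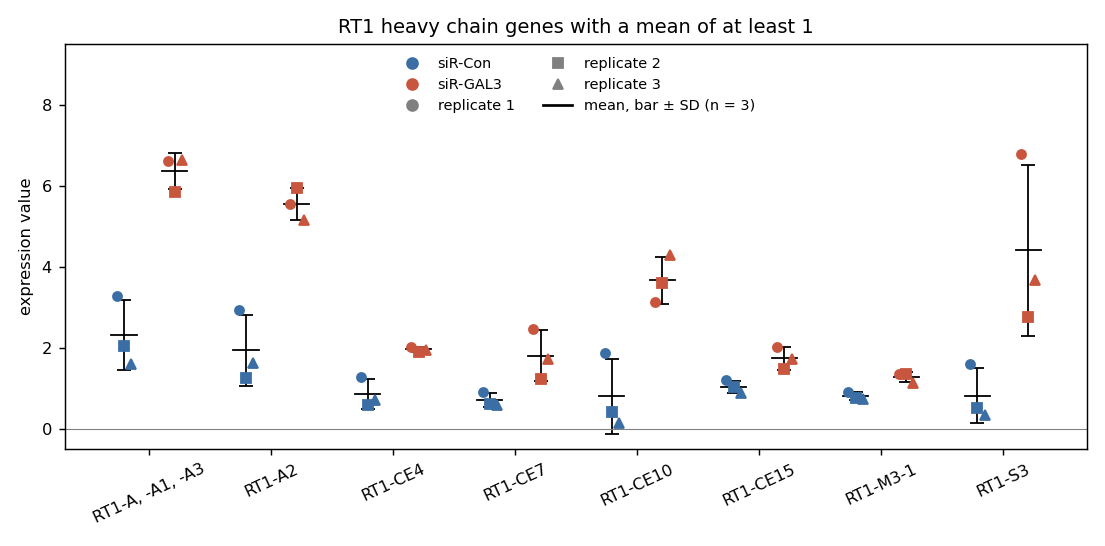
Expression value (y axis) of the 8 RT1 heavy chain genes with a mean of at least 1 in the libraries of both groups, with the marker shape giving the replicate and lines the mean ± SD. All Glu + siR-GAL3 libraries of RT1-A1 are at 5.85 or above and all Glu + siR-Con libraries at 3.27 or below.

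The other genes of the route were taken from lists of 85 symbols, which include the RT1 genes, of which 70 were found, 67 with distinct values, and 42 tested. A total of 10 had an unadjusted p under 0.05 with Glu + siR-GAL3 higher, against 4.41% of the genes tested. With Glu + siR-GAL3 lower there were 0, against 4.25%, and 0 had a limma adjusted p under 0.05. Of these 10, 8 were the RT1 genes above. The median log2 fold change of the 42 was 0.08, against -1.2e-05 over all genes tested.

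The chaperones and peptide editors, which hold class I molecules while they load, had fold changes on both sides of 0. Of 9 tested, 5 were higher and 4 lower, and 0 had an unadjusted p under 0.05 in limma. CALR, the calreticulin of the loading complex, was 61.4 ± 1.46 and 64.7 ± 3.08 (SD, n = 3 each), and the log2 fold change was 0.07 (SE 0.07). PDIA3, of the same complex, was 42.3 ± 0.307 and 43.2 ± 1.18 (SD, n = 3 each). TAPBPL, a tapasin relative that edits peptides, had the smallest p of the list, with 1.42 ± 0.158 and 1.80 ± 0.290 (SD, n = 3 each) and a log2 fold change of 0.21 (SE 0.09, limma adjusted p = 0.577). PRKCSH and HSP90B1 had log2 fold changes of 0.13 and 0.08. Without Glu + siR-GAL3 replicate 2 the log2 fold change was 0.04 for CALR and 0.06 for PRKCSH.

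Of 6 other peptidases tested, 2 were higher, 4 were lower and 0 had an unadjusted p under 0.05 in limma. NPEPPS had the smallest p among them, at 7.62 ± 0.227 and 7.10 ± 0.311 (SD, n = 3 each), and the log2 fold change was -0.09 (SE 0.07, limma adjusted p = 0.622). LAP3, TPP2 and NRDC had log2 fold changes of -0.05, 0.09 and -0.05, and of -0.08, 0.02 and 0.05 without Glu + siR-GAL3 replicate 2, so NRDC changed direction.

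In the rest of the proteasome, 1 of 6 genes tested was higher at an unadjusted p under 0.05, against 4.41% of the genes tested. This gene was PSME2, a subunit of the activator induced by interferon. It was 2.64, 2.20 and 1.97 in Glu + siR-Con and 2.98, 3.82 and 2.69 in Glu + siR-GAL3, and the log2 fold change was 0.34 (SE 0.12, limma adjusted p = 0.519). PSME4, another activator, had a log2 fold change of -0.11, and PSMB6 and PSMB7 had 0.25 and 0.28, which fell to 0.09 and 0.08 without Glu + siR-GAL3 replicate 2. POMP, a chaperone of proteasome assembly, was likewise listed near 0, at 0.00578 to 0.0914.

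Of 12 transcription regulators tested, 8 were higher and 4 lower, and their list includes factors that act on class I promoters. In limma 1 had an unadjusted p under 0.05 and was higher, against 4.41% of the genes tested. When the fit also held the library set, 1 had a limma adjusted p under 0.05 and was higher, against 0.895%. That fit in effect left out Glu + siR-GAL3 replicate 2. The regulators named below did not have an unadjusted p under 0.05. IRF8 and CREB1 had log2 fold changes of 0.19 and -0.23, and NFYC and RELA, the most abundant regulators, 0.08 and -0.04. Without Glu + siR-GAL3 replicate 2 CREB1 was at -0.08 and NFYC at 0.02. CIITA, the relative of NLRC5 that drives class II genes, was listed at -0.00216 to 0.00514.

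**Figure D5:**
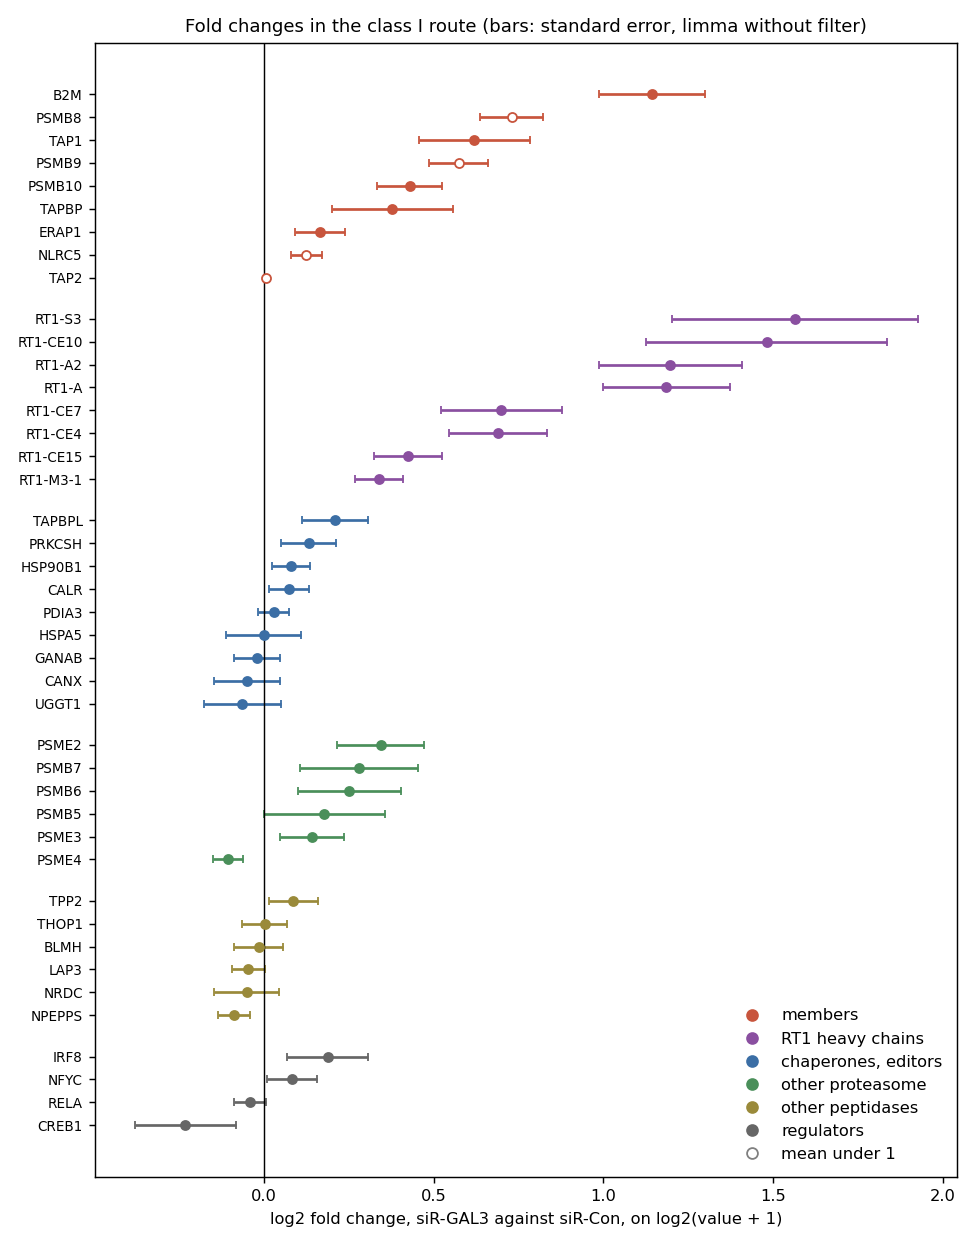
Log2 fold change of Glu + siR-GAL3 against Glu + siR-Con on log2(value + 1) (x axis) for the members and for genes of each list that were tested, with the limma standard error of the fit to all rows. Of the regulators, the 4 tested ones named in the text are drawn, and none of these had an unadjusted p under 0.05 in limma. Open circles are members with a mean under 1. RT1-S3 at 1.56 lies farthest to the right, B2M is at 1.14, and the chaperones and peptidases lie around 0.

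Markers of other cell types moved in the same comparison. Of 15 microglia markers tested, 14 were higher in Glu + siR-GAL3 and 7 of them had an unadjusted p under 0.05, against 4.41% of the genes tested. When the fit also held the library set, 4 (CD68, AIF1, PTPRC and FCER1G) had a limma adjusted p under 0.05, against 0.895% of the genes tested. That fit in effect left out Glu + siR-GAL3 replicate 2. The summed level of the 16 microglia markers was 138 to 165 in Glu + siR-Con and 178 to 199 in Glu + siR-GAL3. The complement genes C1QC and C1QB led the list in level, at 31.9 ± 2.27 against 39.4 ± 0.625 and 31.5 ± 3.52 against 38.1 ± 3.08 (SD, n = 3 each). The largest ratio in the list was 1.77 (AIF1). Of the 8 members with a ratio, B2M, TAP1, PSMB8 and PSMB9 had a larger one and TAPBP, PSMB10, NLRC5 and ERAP1 a smaller one. TMEM119, a defining marker of microglia, was 0.415 to 0.530 over all libraries.

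Of 8 astrocyte markers, 2 were higher and 6 lower, and 4 of the lower ones had an unadjusted p under 0.05, against 4.25% of the genes tested. Their summed level was 928 to 1069 in Glu + siR-Con and 801 to 866 in Glu + siR-GAL3, most of it from GFAP. The groups did not overlap for GFAP and overlapped for AQP4. GFAP was 655 ± 94.6 and 524 ± 9.35, and AQP4, the water channel, 124 ± 12.9 and 108 ± 18.3 (SD, n = 3 each). Of 4 endothelial and fibroblast markers tested, 2 (COL1A1 and PDGFRB) were lower at an unadjusted p under 0.05, against 4.25% of genes tested. The 5 markers found summed to 27.0 to 30.3 in Glu + siR-Con and 21.9 to 24.1 in Glu + siR-GAL3, most of it from COL1A1. COL1A1 and DCN, the most abundant of them, had means of 19.2 ± 1.70 and 14.1 ± 1.86, and of 3.61 ± 0.788 and 4.11 ± 0.539 (SD, n = 3 each).

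The sums of the other marker lists overlapped except that of the lymphocyte markers. Neuron markers summed to 32.8 to 37.8 in Glu + siR-Con and 30.6 to 37.7 in Glu + siR-GAL3. Of 5 tested, 1 (STMN2) was higher at an unadjusted p under 0.05, against 4.41% of the genes tested. MAP2 and ELAVL3, the most abundant neuron markers, had log2 fold changes of -0.09 and 0.04, which became 0.05 and 0.15 without Glu + siR-GAL3 replicate 2, so that of MAP2 changed direction. Oligodendrocyte lineage markers summed to 930 to 992 and 929 to 1240, and 0 of 8 tested had an unadjusted p under 0.05 in limma, with a log2 fold change of 0.21 for MBP. Lymphocyte markers, none of which passed the filter, summed to 0.0773 to 0.212 and 0.255 to 0.377, most of it from CD8A. The part of these markers in the values of B2M and the other members was not tested.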

How the data were processed

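RNA of 6 samples was sequenced by the authors, and reads were aligned with STAR, counted per gene with HTSeq and turned into FPKM, after which batch effects were removed, the data were standardized and differences within groups were corrected, with no tool named. The deposited matrix holds the resulting expression values, other than plain FPKM because 2376 of 17648 rows hold a value below 0. The labels give depletion of ribosomal RNA and the supplement selection of polyadenylated RNA. Counting by strand and the genome build are not given in the sources used here. The sequencing depth is not known, and counting error could not be computed.

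Groups were taken from the sample names. Values below 0 were set to 0 (24 genes tested), log2(value + 1) was taken, and limma (version 3.58.1, R 4.3.3) was run with an intensity trend and no covariate on the 6 libraries, for genes whose mean reached 1. P-values are two-sided and Benjamini-Hochberg adjusted over the 8495 genes. A total of 0 genes had an adjusted p under 0.05 (736 unadjusted). In 432 rows all 6 values recurred in a second row. Motifs were searched with Python 3.11.15.

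The members and lists were chosen with earlier results of these data known. Beside the members, the genes named are the 3 with the smallest p and the 2 highest in mean level of each pathway list, the RT1 genes with a mean of at least 1, the 2 highest of each marker list, the 5 most like B2M, and LGALS3. PSMB5, AIF1, TMEM119, RBFOX3, CIITA, POMP, PDGFRB, STMN2, MR1, CD1D1 and HFE were added after their values were seen. Some genes that this rule would name are not reported here. Alternatives were other pseudocounts, filters, scalings, blocks, the linear scale and leaving out each library.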

Additional observations from a re-analysis of the deposited data

How the results depend on the processing

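The alternative runs repeat the comparison that chose the genes, so for the members they are description only. All 9 members, including TAP2 with values around 0, had a positive log2 fold change under each alternative run. Their median of 0.43 was 0.58 with a pseudocount of 0.1, where PSMB8, PSMB9 and NLRC5 were at 1.54, 1.09 and 0.49, and 0.40 to 0.56 when each library was left out. The 27 genes past the study criteria became 5 with a mean of at least 10 and 367 on the linear scale, and 25 to 29 without each library. The 736 genes with an unadjusted p under 0.05 became 1623 with no filter, 121 with a mean of at least 10 and 1174 when the fit held the library set. They became 362 to 1381 when each library was left out, the lowest without Glu + siR-Con replicate 3 and the highest without Glu + siR-GAL3 replicate 2, and without the latter 167 genes had an adjusted p under 0.05, where the fit to all libraries had 0. The 10 other pathway genes became 17 with no filter, 0 with a mean of at least 10 and 9 to 11 when each library was left out. The median of the regulators, 0.0148, was -0.00578 when the fit held the library set, -0.00206 without Glu + siR-Con replicate 2 and up to 0.057 without another library (Glu + siR-GAL3 replicate 1). That of the neuron markers, 0.0192, was -0.00392 without Glu + siR-Con replicate 2 and -0.0328 without Glu + siR-GAL3 replicate 3, and at most 0.032 (without Glu + siR-Con replicate 1). The filters changed the number of genes tested, and for the other changes the cause was not tested.

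Same-numbered libraries of the groups did not deviate together (r of -0.17, -0.07 and 0.04), so the numbers were not taken as a pairing. With the replicate number as a block, 543 genes had an unadjusted p under 0.05, 27 passed the study criteria and the B2M log2 fold change was 1.14. Not every library correlated best with its own number. The unknown depth, the authors' correction within groups and n = 3 limit what the spread between libraries shows.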
